A study of Drosophila melanogaster with 6 samples.

Results

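The 9 genes described here encode DNA-binding proteins and cofactors of fly promoters and insulators: Trl (the GAGA factor), M1BP, lolal, psq, CTCF, BEAF-32, Cp190, su(Hw) and mod(mdg4). They were chosen by name and not by their values, though with earlier results of these data known, from the 11981 genes that the arrays measured. The probe annotation gave 37 probe sets to these genes, of 18769 that were not controls. Of the 37, 32 were annotated to 1 member alone and 5 were shared with another gene. All 9 genes had a probe set above background, which was set at a normalized log2 level of 3.88 from 17 tag control probe sets.

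Messenger RNA was measured in S2 cells of Drosophila melanogaster from the Drosophila Genomics Resource Center, an established line derived from embryos, with features of macrophage-like blood cells. There were 3 groups of 2 Affymetrix Drosophila Genome 2.0 arrays each: untreated cells that received no dsRNA, mock cells given dsRNA to β-galactosidase, a bacterial enzyme, and NELF-depleted cells given dsRNA to the NELF-B and NELF-E subunits. Cells of both dsRNA groups were collected 96 hours after the dsRNA was added, and all groups were grown in the same medium. NELF, the negative elongation factor, helps to hold RNA polymerase II paused just downstream of the transcription start site. No label says whether the 2 arrays of each group had separate cultures behind them. The p-values below therefore measure only the spread between these arrays, which may be technical.

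GAGA factor binds GA-rich elements, recruits chromatin remodelers such as NURF and keeps promoters free of nucleosomes, among them promoters at which polymerase pauses. M1BP binds the core promoter element called Motif 1, mostly at genes active in all cells, and also marks promoters with paused polymerase. Insulator proteins bind boundaries between chromatin domains and limit which enhancers reach a promoter. In flies CTCF, BEAF-32 and su(Hw) bind DNA themselves, while Cp190 and mod(mdg4) join them through protein contacts. Setting NELF-depleted against mock cells asks whether the mRNAs for these proteins differ once NELF mRNA has been reduced, with untreated cells as a second control.

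The mRNAs of both targeted subunits fell. NELF-B stood at 26.1% of its mock level (limma, adjusted p = 0.000284) and Nelf-E at 19.0% (limma, adjusted p = 7.37e-05). Of 12 markers of macrophage-like blood cells, 10 were above background by their mean over the 6 arrays. The phagocytosis receptors NimC1 and Sr-CI were not, though Sr-CI was above it on both untreated arrays (4.04 and 4.77) and read 1.01 on mock replicate 2. Of the 10, eater and drpr, both phagocytosis receptors, were lower in NELF-depleted than in mock cells. They stood at 54.8% and 54.9% of the mock level (limma, adjusted p = 0.0170 and 0.00301). The other 8 markers above background did not pass and lay between 89.2% (vkg) and 233.9% (Hml) of the mock level, with Pvr at 149.6%, Pxn at 143.6%, ush at 133.7% and the phagocytosis receptor crq at 112.1%. Their part in the members' values was not tested. Of 9 markers of neurons, glia, fat body, germline, ovarian soma and crystal cells, 8 had a mean below background, and the neuronal marker elav had a mean log2 level of 6.36. Some of the 8 were above background on single arrays, among them bam (4.48 and 4.25) and Lsp2 (4.35 and 4.12) on both mock arrays. In whole-culture RNA, fewer cells of a kind and less RNA per cell cannot be told apart. Median deposited intensities ran from 11.7 to 14.2 over the 6 arrays, and between 6948 and 7012 genes per array lay above background after normalization. With so few arrays, their number sets the precision of the values below.

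None of the 9 members passed the test in NELF-depleted against mock cells. Limma fitted over all genes, with a prior variance that depends on intensity, gave 0 of 9 members at an adjusted p under 0.05, whereas 1.35% of all genes tested passed. At an unadjusted p under 0.05 there were 3 members, Trl, psq and BEAF-32, all with lower means in NELF-depleted cells, against 11% of all genes in either direction. With 1 prior variance for all genes, limma called 0 members and 0% of all genes. The members' changes on the log2 scale ran from -0.64 for psq to 0.13 for mod(mdg4), with a median of 0.04. The median over all genes was 0.01, with the middle of the distribution between -0.27 and 0.25. In the text below, log2 levels and changes are on the scale of the logarithm of intensity plus a small offset of 0.819, which understates changes of dim genes, and levels of different genes are not compared, since each rests on its own probes.

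**Figure D1:**
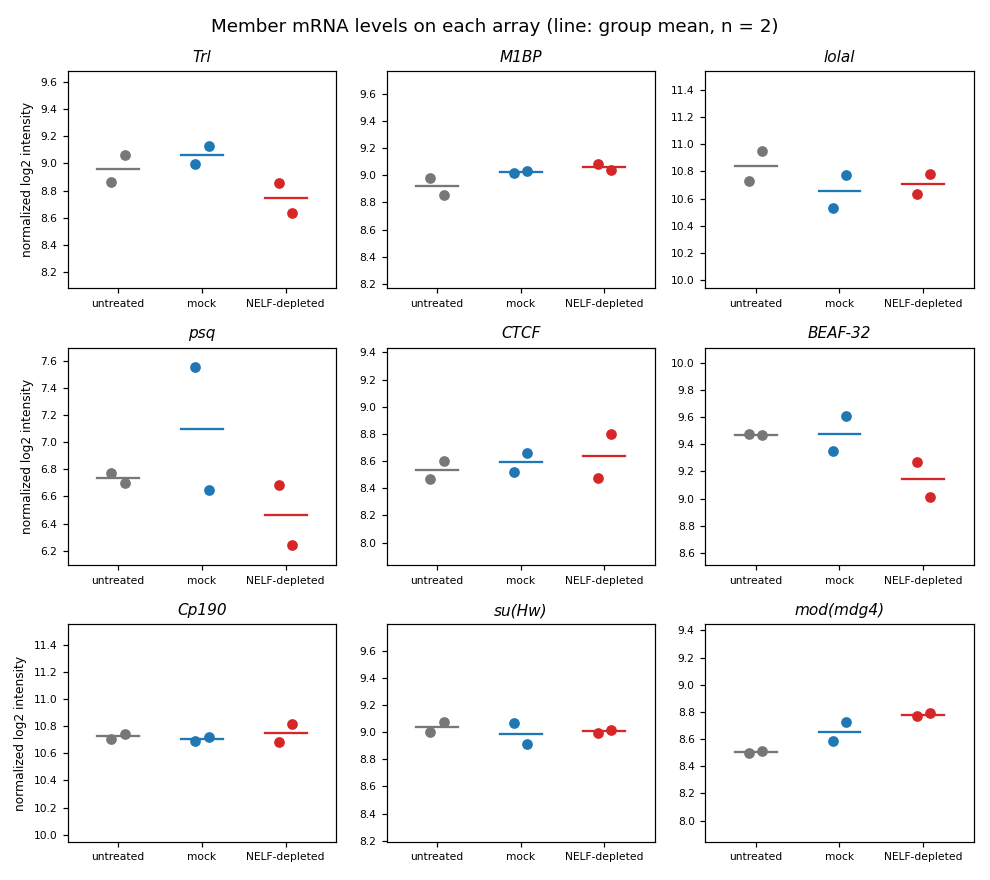
Normalized log2 intensity (vertical axis) of each member's gene-level probe set on the 6 arrays, by group; points are arrays and lines are means of 2 arrays. The NELF-depleted arrays lie below all 4 control arrays for Trl and BEAF-32 and above them for M1BP and mod(mdg4), and the mock arrays of psq lie 0.902 apart.

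Of the promoter-binding factors, Trl had lower and M1BP slightly higher values in NELF-depleted cells. Trl, read by 1 probe set of its own (1635305_s_at, gene identifier 2768981, chromosome 3L), had normalized log2 levels of 8.864 and 9.06 in untreated, 8.997 and 9.13 in mock, and 8.857 and 8.63 in NELF-depleted cells. Both NELF-depleted arrays were below all 4 controls, one of them by a narrow margin from an untreated array. The mean was 80.3% of mock (95% confidence interval 66.8 to 96.5%), a log2 change of -0.32 (SE 0.119), which did not pass over all genes (limma, adjusted p = 0.344). Against untreated cells Trl had a change of -0.22 (SE 0.119; limma, adjusted p = 0.625). In the order of group means, mock, untreated and NELF-depleted, neighbouring groups were closer together than the fit could tell apart.

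A further 2 probe sets carry Trl together with CG42507, a gene that overlaps it in the RefSeq annotation. The brighter one (1629754_s_at) read 9.47 and 9.50 in untreated, 9.44 and 9.59 in mock, and 9.40 and 9.54 in NELF-depleted cells. Its groups overlapped, with a change of -0.04 (SE 0.104) against mock, so the lower values of the probe set annotated to Trl alone were not seen in it. The dimmer one (1628275_at) had a change of -0.36 (SE 0.362) against mock and of -0.04 (SE 0.362) against untreated cells. Which share of either signal comes from Trl cannot be read from these arrays, and the probe annotation does not say which of the 10 Trl transcripts in RefSeq each probe set reads.

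M1BP (1639354_at, gene identifier 41042, chromosome 3R) had log2 levels of 8.98 and 8.86 in untreated, 9.01 and 9.030 in mock, and 9.08 and 9.037 in NELF-depleted cells. The NELF-depleted arrays were above all controls, but the nearest mock array almost met them. The mean was 102.6% of mock (95% confidence interval 88.1 to 119.5%) and 110.3% of untreated (94.8 to 128.4%), and neither comparison passed (limma, adjusted p = 0.944 and 0.728). Non-overlap of this kind is common on these arrays: 39.2% of all genes had NELF-depleted arrays wholly on one side of the mock arrays, against 4 of the 9 members, Trl and BEAF-32 below and M1BP and mod(mdg4) above. Set against all 4 control arrays, the same 4 members did not overlap, 2 lower and 2 higher, beside 11% of all genes lower and 11.1% higher.

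The BTB proteins lolal and psq share the protein interaction domain of GAGA factor; lolal (Batman) binds GAGA factor through that domain, and psq (Pipsqueak) binds GA-rich DNA itself. Lolal (1640311_s_at, gene identifier 44703, chromosome 2R) had log2 levels of 10.73 and 10.95 in untreated, 10.53 and 10.77 in mock, and 10.64 and 10.78 in NELF-depleted cells. All 3 groups overlapped. The change against mock was 0.05 (SE 0.116; limma, adjusted p = 0.927), with a 95% confidence interval from 86.9 to 124.2% of the mock level.

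Psq (1639136_s_at, gene identifier 36118, chromosome 2R) varied most of the 9 members between arrays of a group. Its log2 levels were 6.77 and 6.70 in untreated, 7.55 and 6.65 in mock, and 6.68 and 6.24 in NELF-depleted cells. One mock array stood above the 5 others, and the NELF-depleted and mock arrays overlapped. The change of -0.64 against mock (SE 0.285; limma, adjusted p = 0.448) corresponds to 64.2% of the mock level, with an interval from 41.4 to 99.6%. That value rests on the high array: it was -0.19 without mock replicate 1 and -1.09 without mock replicate 2, and none of the 6 fits that left out an array called it (smallest adjusted p = 0.185). Against untreated cells the change was -0.27 (SE 0.285; limma, adjusted p = 0.830), and both NELF-depleted arrays were below both untreated ones.

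**Figure D2:**
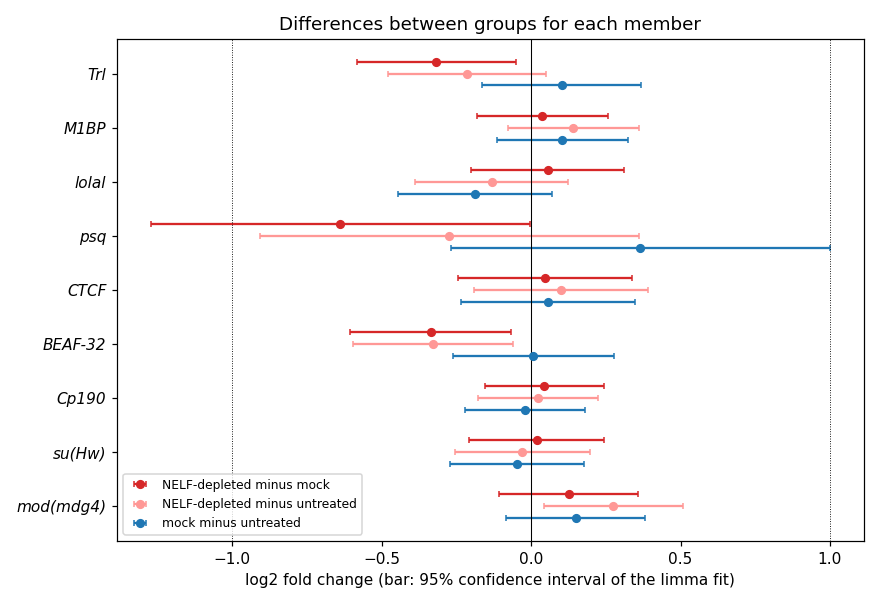
Log2 fold change of each member (horizontal axis) in the 3 comparisons between groups; points are differences of means of 2 arrays and bars are 95% confidence intervals of the limma fit over all 6 arrays, with dotted lines at 1 and -1. Intervals that leave out 0 belong to Trl, psq and BEAF-32 against mock and to BEAF-32 and mod(mdg4) against untreated, none of which passed after adjustment over all genes.

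Of the insulator proteins that bind DNA, BEAF-32 had the lowest unadjusted p of the 9 members. BEAF-32 (1624484_a_at, gene identifier 36645, chromosome 2R), which binds CGATA-containing elements near promoters of active genes, had log2 levels of 9.48 and 9.47 in untreated, 9.35 and 9.61 in mock, and 9.27 and 9.01 in NELF-depleted cells. Both NELF-depleted arrays were below all 4 control arrays. The mean was 79.2% of mock (95% confidence interval 65.8 to 95.4%; log2 change -0.34, SE 0.121) and 79.6% of untreated (66.1 to 95.9%; -0.33, SE 0.121). Neither passed over all genes (limma, adjusted p = 0.313 and 0.361), and the mock comparison ranged from -0.47 to -0.21 when 1 array was left out. Both comparisons use the same NELF-depleted arrays and are not independent of each other.

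CTCF and su(Hw) had changes near 0. CTCF (1627546_at, gene identifier 38817, chromosome 3L), the fly form of the insulator protein that vertebrates share, had log2 levels of 8.47 and 8.60 in untreated, 8.52 and 8.66 in mock, and 8.48 and 8.80 in NELF-depleted cells. Its groups overlapped, and the change against mock was 0.04 (SE 0.131; limma, adjusted p = 0.952), with an interval from 84.3 to 126.2% of the mock level. A second CTCF probe set (1626500_a_at) had a change of 0.07 (SE 0.394). The remaining CTCF probe set (1636485_at), with a mean log2 level of 2.14, was below background and carries no level of its own.

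Su(Hw) (1631004_s_at, gene identifier 41740, chromosome 3R), the zinc finger protein that binds the gypsy retrotransposon insulator, had log2 levels of 9.002 and 9.07 in untreated, 9.06 and 8.91 in mock, and 8.996 and 9.02 in NELF-depleted cells. The groups overlapped. Its change against mock was the smallest of the 9 members, 0.02 (SE 0.101), with an interval from 86.7 to 118.4% of the mock level (limma, adjusted p = 0.979).

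Of the cofactors, Cp190 did not differ beyond its spread, and mod(mdg4) had slightly higher values at its brightest probe set. Cp190 (1631940_s_at, gene identifier 41848, chromosome 3R), which holds a BTB domain and joins several insulator proteins, had log2 levels of 10.71 and 10.74 in untreated, 10.69 and 10.72 in mock, and 10.68 and 10.81 in NELF-depleted cells. The groups overlapped, and the interval against mock, from 89.7 to 118.5% of the mock level, was the narrowest of the 9 (log2 change 0.04, SE 0.0904; limma, adjusted p = 0.924). Over the 8 members other than psq, the intervals against mock lay between 65.8 and 128.3% of the mock level. A change to 50% or 200% of the mock level lies outside all 8 of these intervals, for the scaling and the intensity-dependent prior used here. They are intervals of the brightest probe set of each gene and reflect only the spread between arrays, which may be technical. Dimmer probe sets had wider ones: 86.4 to 219.9% for 1633152_at of mod(mdg4), which includes 200%. For 1628275_at, which Trl shares with CG42507, the interval was 44.7 to 135.0%, which includes 50%. The interval of psq, from 41.4 to 99.6%, includes 50%.

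The mod(mdg4) locus (gene identifier 49228, chromosome 3R) makes many protein isoforms that share a first part with a BTB domain and differ in their last part, several of them joined by trans-splicing of separate transcripts. RefSeq lists 31 transcripts for it and 6 overlapping genes named pre-mod(mdg4). Its brightest probe set (1637723_at) had log2 levels of 8.498 and 8.51 in untreated, 8.59 and 8.72 in mock, and 8.77 and 8.79 in NELF-depleted cells. The 3 groups did not overlap, and untreated cells were lowest. The change was 0.13 against mock (SE 0.105; limma, adjusted p = 0.743) and 0.28 against untreated cells (SE 0.105; limma, adjusted p = 0.383). Mock cells too were higher than untreated ones, by 0.15 (SE 0.105; limma, adjusted p = 0.9997).

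The mod(mdg4) gene had 22 probe sets of its own, all above background, with mean log2 levels from 5.23 to 8.65. In a fit of the same model over all 18769 probe sets, 0 of the 22 passed against mock (smallest adjusted p = 0.394, limma), beside 1.02% of all probe sets. The changes ran from -0.31 to 0.46 with a median of 0.06, and 15 were above 0 and 7 below. Such signs depend on the scaling: with hybridization controls aligned, the brightest probe set had a change of -0.29, where the median of all genes was -0.42. At an unadjusted p under 0.05 there were 2, beside 9.87% of all probe sets. These 22 probe sets share a gene, and many may share transcripts, so they are not independent readings.

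Both probe sets of unadjusted p under 0.05 lay on opposite sides of 0. Probe set 1626650_at had log2 levels of 7.71 and 7.86 in untreated, 7.80 and 7.82 in mock, and 8.03 and 8.32 in NELF-depleted cells, above all 4 controls, a change of 0.37 (SE 0.140) against mock and 0.39 (SE 0.140) against untreated. Probe set 1640268_at had 7.999 and 8.08 in untreated, 8.32 and 8.42 in mock, and 8.19 and 7.92 in NELF-depleted cells. It was lower than mock by its own change of -0.31 (SE 0.131) but close to untreated, at 0.02 (SE 0.131). The largest difference from mock belonged to a dim probe set, 1633152_at, whose change of 0.46 (SE 0.306) turned to -0.10 (SE 0.306) against untreated cells, with 1 mock array at 5.08 and all other arrays between 5.86 and 6.04.

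Whether the probe sets of mod(mdg4) changed unequally was tested with limma's diffSplice, which sets each probe set against the others of its gene. No mod(mdg4) probe set passed in any comparison: against mock, 3 of 22 had an unadjusted p under 0.05, beside 8.49% of the 2755 probe sets tested, and the smallest adjusted p was 0.360. That smallest value belonged to 1633152_at, the dim probe set with 1 low mock array. The method takes probe sets of a gene as independent and of equal spread. Those of mod(mdg4) are neither, so its p-values here are only approximate. The test of unequal change over the whole gene gave an adjusted p of 0.693 for mod(mdg4) (limma diffSplice), and 0 of the 1093 genes with several probe sets passed. The 3 shared mod(mdg4) probe sets had changes against mock between -0.03 and 0.12. Of the 32 probe sets annotated to a single member, 0 passed against mock, and 2 lay below and 5 above all 4 control arrays, beside 9.93 and 10.7% of all probe sets. Of those 5, 4 belonged to mod(mdg4), whose probe sets are not independent readings.

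**Figure D3:**
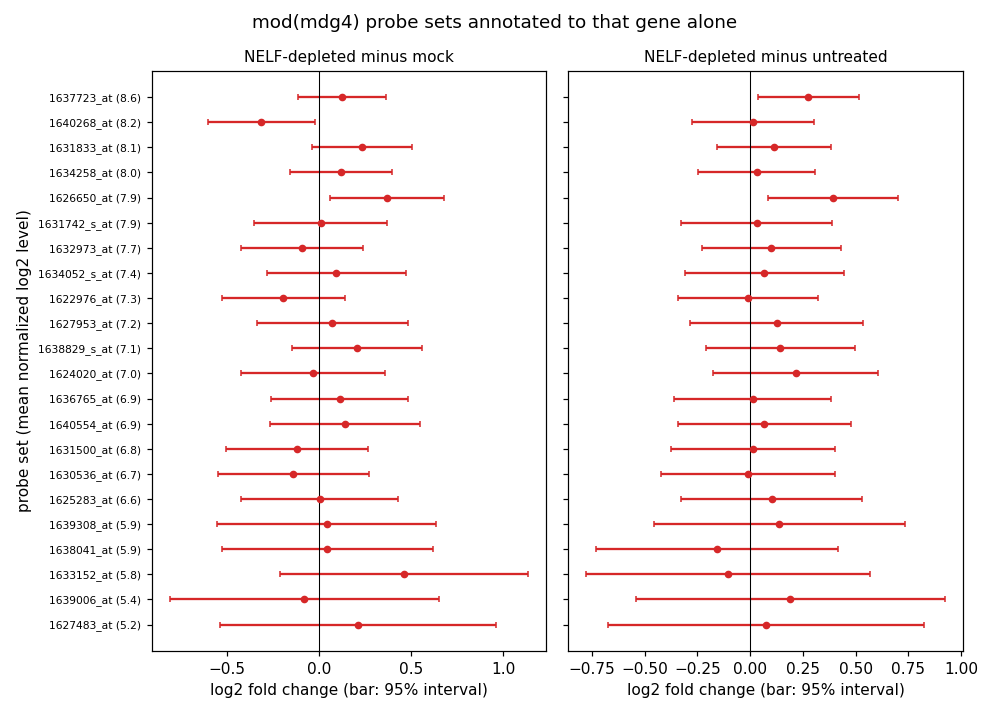
Log2 fold change (horizontal axes) of the 22 mod(mdg4) probe sets, ordered from bright to dim with the mean normalized log2 level in brackets, in NELF-depleted minus mock (left) and NELF-depleted minus untreated cells (right); bars are 95% confidence intervals of limma over all probe sets, and the 2 panels have their own horizontal scales. Points lie on both sides of 0 on the left (15 above, 7 below), and intervals widen towards the dim probe sets.

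The comparison with untreated cells gave no member that passed either. By limma 0 of 9 members were called, beside 1.41% of all genes, and 2 members, BEAF-32 and mod(mdg4), had an unadjusted p under 0.05, beside 10% of all genes. The changes ran from -0.33 for BEAF-32 to 0.28 for mod(mdg4). Against untreated arrays 5 members did not overlap, with Trl, psq and BEAF-32 lower and M1BP and mod(mdg4) higher, beside 40.8% of all genes. Of the 22 mod(mdg4) probe sets 0 passed, 18 were above 0 and 4 below, and the median change was 0.07. Over all probe sets 1.13% passed. The signs depend on the scaling. With values as deposited the brightest mod(mdg4) probe set had a change of -0.16, where the median of all genes was -0.37.

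Mock and untreated cells, which differ in having received dsRNA to β-galactosidase, did not differ in any member by the test. Limma called 0 members and 0% of all genes. No member had an unadjusted p under 0.05, which 3.41% of all genes had. The changes ran from -0.19 for lolal to 0.37 for psq, the latter set by the same high mock array, since it was -0.09 without mock replicate 1. M1BP and mod(mdg4) were higher on both mock arrays than on both untreated ones, beside 28.4% of all genes that did not overlap. The intervals of the 8 members other than psq lay between 73.5 and 130.4% of the untreated level.

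Genes that work with these factors were described from 6 lists: partners of insulator proteins, cohesin and condensin II, factors of GAGA and Polycomb elements, factors of housekeeping promoters, other BTB transcription factors, and the NURF remodeler. Of 62 listed genes 52 were measured and 47 were above background. Against mock 1 of the 52 passed, lower, and 0 passed as higher, beside 1.09% and 0.267% of all genes. The median change of the 52 was 0.04 and that of all genes 0.01, and 31 of the 52 were above 0. Against untreated cells the same gene was the 1 that passed, and in mock against untreated cells 0 passed.

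That gene was br (broad), which encodes BTB zinc finger proteins that act in the response to the hormone ecdysone. Its brightest probe set (1635691_at) read 8.58 and 8.63 in untreated, 8.63 and 8.35 in mock, and 7.48 and 7.56 in NELF-depleted cells. All control arrays were above both NELF-depleted ones. It fell by 0.97 on the log2 scale against mock (SE 0.129; limma, adjusted p = 0.00332) and by 1.09 against untreated cells (limma, adjusted p = 0.00189). The other 4 br probe sets were dim, with mean log2 levels from 4.30 to 4.58, and none of them passed. For 3 of these the change against mock lay between -0.30 and -0.12. The remaining one (1629683_at) read 4.84 and 4.79 in mock and 4.43 and 2.74 in NELF-depleted cells, 1 array of which was below background, so no size of change is given for it. The call rests on the brightest probe set and is lost, at -0.32 (limma, adjusted p = 0.868), when the median over the 5 probe sets stands for the gene. For the brightest probe set the call against mock is also lost under other settings. With deposited values left unscaled the change was -1.04 (limma, adjusted p = 0.119), and with array medians aligned -0.91 (limma, adjusted p = 0.120). With a single prior the adjusted p was 0.207 (limma), a setting under which 0 of all genes passed. Against untreated cells br was still called with deposited values left unscaled (limma, adjusted p = 0.00174). The same held with array medians aligned (limma, adjusted p = 0.00974). That call too was lost with a single prior and with the median over probe sets.

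Among insulator partners, 16 of 17 listed genes were measured and 0 passed, with a median change of 0.04. Ibf2, a subunit of the insulator binding factor that joins Cp190, had log2 levels of 10.07 and 10.00 in untreated, 9.88 and 10.14 in mock, and 9.63 and 9.58 in NELF-depleted cells. Its NELF-depleted arrays were below all controls, with a change of -0.40 (SE 0.106; limma, adjusted p = 0.136). Topors, a ubiquitin ligase of gypsy insulator complexes, had a change of -0.29 (SE 0.144) and dwg (Zw5), a zinc finger insulator protein, one of 0.31 (SE 0.154).

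Of cohesin, which forms loops and holds sister chromatids together, and condensin II, 9 of 11 genes were measured and 0 passed. Pds5, a cohesin regulator, had log2 levels of 9.32 and 9.88 in untreated, 10.09 and 10.03 in mock, and 9.39 and 9.46 in NELF-depleted cells. It was lower than mock by its change of -0.64 (SE 0.152; limma, adjusted p = 0.0887) on both arrays, yet 1 untreated array was below both NELF-depleted ones. Pds5 was called by limma on the 4 NELF-depleted and mock arrays alone (adjusted p = 0.0130) and among genes above the median level (adjusted p = 0.0454). With hybridization controls aligned it was 1 of 24 listed genes called. It was not called with values as deposited, with array medians aligned or with any other offset. A single prior and the median over probe sets did not call it either. Against untreated cells the change was -0.18 (SE 0.152; limma, adjusted p = 0.788). SMC1, a cohesin core subunit, had 10.08 and 10.19 in untreated, 10.15 and 10.14 in mock, and 10.44 and 10.48 in NELF-depleted cells. Its NELF-depleted arrays were above all controls, with a change of 0.31 (SE 0.0890; limma, adjusted p = 0.175). Nipped-B, the cohesin loader, had a mean level below background.

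In the remaining lists no gene passed apart from br. The NURF remodeler, which GAGA factor recruits, had all 4 genes measured, with changes against mock from -0.12 for E(bx), its largest subunit, to -0.02, and -0.07 for its ATPase Iswi. Of 6 measured factors of GAGA and Polycomb elements, Clamp, which like GAGA factor binds GA repeats, had a change of 0.22 (SE 0.116) and phol, a Polycomb element binding protein, one of 0.17 (SE 0.137). The epidermal factor grh was below background. The 10 measured factors of housekeeping promoters had a median change of 0.02, and Trf2, a TBP-related factor, stood highest at 0.46 (SE 0.217; limma, adjusted p = 0.479), while dgt1 had 0.11 and the histone acetyltransferase mof 0.16. Of 10 measured BTB factors, chinmo, which sets the temporal identity of neurons, had a change of 0.31 (SE 0.145), and bab2, a patterning factor of legs and abdomen, one of -0.56 (SE 0.317), neither of which passed.

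**Figure D4:**
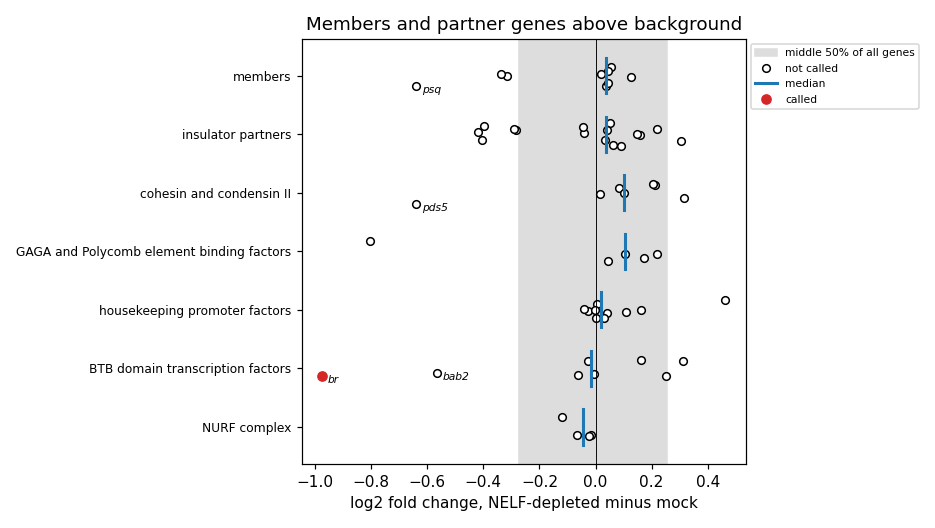
Log2 fold change in NELF-depleted minus mock cells (horizontal axis) of the 9 members and of the listed partner genes above background, 1 row per list; each point is a gene, blue bars are list medians over the genes shown, and the grey band holds the middle 50% of all genes. The single filled point is br at -0.97, the only listed gene that passed the test in the reported fit.

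BEAF-32, as the member of smallest unadjusted p, was set beside all other genes above background. Of 6531 genes, the 3 whose normalized log2 values over the 6 arrays were most like it by Pearson's correlation were CG32708 (r = 0.985), Zaf1 (r = 0.985) and CG10505 (r = 0.976), and 117 genes had an r over 0.9. Over 6 arrays in 3 groups such values are a description, since the points share groups and arrays. CG32708 read 8.80 and 8.84 in untreated, 8.67 and 8.91 in mock, and 8.60 and 8.44 in NELF-depleted cells. Its lowest values were on both NELF-depleted arrays, as for BEAF-32, which its choice by correlation over the same arrays made likely. Zaf1 and CG10505 were dim. In NELF-depleted cells both arrays of CG10505 (3.74 and 2.76) and 1 array of Zaf1 (3.68) lay below background, so their correlations rest in part on values with no level of their own, and no size of change is given. Among the members, Trl was nearest to BEAF-32 (r = 0.892).

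The members' calls depended on how the arrays were scaled. With quantile normalization the median of all genes differed by 0.01 between NELF-depleted and mock cells, with values as deposited by -0.07, with array medians aligned by 0.06 and with the spiked-in hybridization controls aligned by -0.42. Under the last scaling 6 of 9 members passed as lower against mock (Trl, M1BP, psq, BEAF-32, Cp190 and su(Hw)), beside 25.1% of all genes in either direction and 24.9% lower. Against untreated cells 5 passed as lower (Trl, lolal, BEAF-32, Cp190 and su(Hw)), beside 19.6% of all genes, with a median of all genes of -0.35. These shares include genes below background, whereas all 9 members were above it. In the quantile normalized fit against mock, 1.35% of all genes passed but 2.48% of those above background. The share above background is not given here for the hybridization controls, so the members' counts cannot be read as an excess. The 3 scalings other than quantile normalization differ from one another by a constant for each array, so that a gene's place relative to the median of all genes is the same in them by construction. Against mock that place was -0.32 for Trl, -0.34 for BEAF-32 and 0.03 for M1BP, beside -0.33, -0.35 and 0.03 in the quantile normalized values. The hybridization controls themselves differed between arrays, with mean log2 intensities from 10.08 on mock replicate 2 to 10.79 on NELF-depleted replicate 1, and whether total mRNA per cell differed between the groups was not measured here.

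**Figure D5:**
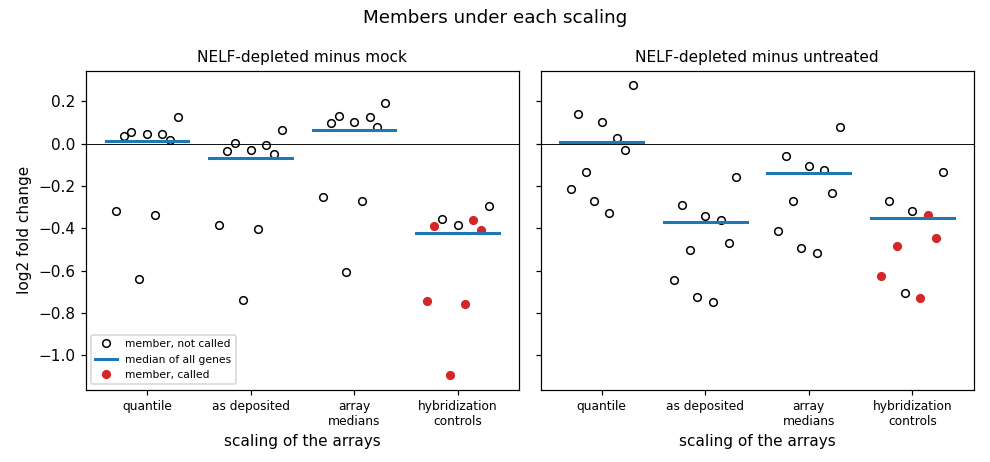
Log2 fold change (vertical axis) of the 9 members under 4 scalings of the arrays, in NELF-depleted minus mock (left) and NELF-depleted minus untreated cells (right); open points did not pass, filled points did, and blue lines are the medians of all genes. The members move with the median of all genes, which is -0.42 and -0.35 with hybridization controls, the one scaling with filled points.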

How the data were processed

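The authors deposited linear intensities of 18952 probe sets, 1 value for each array. Per the series' design text, image data came either from GeneChip Operating Software (1.2.0.037) or from Command Console (1.1), and then went into Rosetta Resolver (6.0). How probes were summarised, scaled and corrected for background is not given in the sources used here. All 6 arrays were mapped to groups by their titles.

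Deposited intensities were put on a log2 scale after adding 0.819, their 5th percentile. Array medians differed by 0.257 on that scale, more than the limit of 0.1, so quantile normalization was applied across the 6 arrays. Then 183 control probe sets were left out. Of the others, 13647 were annotated to 1 gene, 402 to several and 4720 were unlisted; the brightest probe set of 1 gene stood for it, giving 11981 genes. The annotation comes from GEO's platform table and can be old; symbols of 11893 genes were updated through the RefSeq gene table (Release 6 plus ISO1 MT), used only for names, chromosomes, transcripts and overlapping genes, and 1 ambiguous symbol was left out. Coordinates are left out because the table gives no build.

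Tests used limma 3.58.1 in R 4.3.3, two-sided: lmFit with a mean for each of 3 groups and 3 residual degrees of freedom, then eBayes with an intensity-dependent prior (7.31 prior degrees of freedom; 1.2 with a single prior), Benjamini-Hochberg adjustment over all genes or all probe sets, called at an adjusted p under 0.05. An exact permutation test of a single value could not go below p = 0.333 with 2 arrays against 2, and below 0.0667 with 2 against 4, so none is given. The fits were run on simulated data with known changes, independent noise and no differences in scaling between arrays. That check therefore cannot speak to the choice of scaling or to what lies behind the replicate arrays. Background was set from 17 tag controls at their 95th percentile (log2 3.88, or an intensity of 13.9), and 6532 genes had a mean above it. The arrays of a group had 0 probe sets with equal values.

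Members, lists and the intensity-dependent prior were chosen with earlier results of these data known. Named genes were all members and their probe sets, both NELF targets, in each list up to 3 genes of smallest p against mock, and the 3 genes most like the member of smallest p; the br probe sets were added after values were seen. Alternatives were 3 scalings, 3 offsets, 2 filters on dim genes, a single prior, the median over probe sets, a fit on the 4 arrays compared, a replicate block and leaving out each array. The diffSplice test and the alternatives for list genes and NELF targets were chosen after seeing the data. Promoter sequences were not analysed here.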

Additional observations from a re-analysis of the deposited data

How the results depend on the processing

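Intervals widen towards dim probe sets. Under 18 alternatives, member genes were called in 0 of the fits other than the one scaled on hybridization controls, which called 6 against mock and 5 against untreated cells; outside it the smallest adjusted p of a member (limma) was 0.185 for psq against mock, 0.162 for BEAF-32 against untreated and 0.593 for lolal in mock against untreated cells. The count of all genes called against mock, 162 (130 lower), was 54 as deposited (53 lower), 54 with array medians (48 lower), 3004 with hybridization controls (2987 lower), 74 with an offset of 50 units, 247 among genes above the median, 0 with a single prior, and 65 to 127 with 1 array left out. Against untreated cells the count of 169 (141 lower) became 2350 with hybridization controls (2331 lower), 89 with the offset of 50, 0 with a single prior and 70 to 146 with 1 array left out. Of the listed partner genes, 1 was called against mock; the count was 0 as deposited, with array medians, with a single prior and with the median over probe sets, 24 with hybridization controls, and 2 (br and pds5) above the median gene, on the 4 arrays alone and with the block. It was 1 or 2 with 1 array left out, pds5 passing without untreated replicate 1 or replicate 2 (limma, adjusted p = 0.0140 and 0.0151). Against untreated cells it was 12 with hybridization controls and 0 with a single prior or the median over probe sets. NELF-B and Nelf-E were called in 17 of 18 alternatives against mock and not with a single prior (limma, adjusted p = 0.139 for both). The cause of these shifts was not tested. A replicate block gave 271 genes against mock (205 lower), 270 against untreated and 0 members, and called pds5 against mock (limma, adjusted p = 0.0464). What replicate numbers stand for is not labelled; deviations of arrays with the same number correlated at 0.145 to 0.158 over 6532 genes, and with 2 numbers per group this cannot show a pairing.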
